A study of Mus musculus with 12 samples.

Results

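Tc1 cells are CD8 T cells activated in the presence of IL-12, a cytokine that drives CD8 T cells towards interferon-gamma secretion and killing. The cells described here are Tc1 cells with and without STAT3. They are represented by 6 arrays of the 12 in the series: 3 of wild-type (WT) cells and 3 of STAT3-/- cells, taken by their titles. Each set of 3 holds biological replicates 1 and 2 and an array titled technical replicate 2, which was averaged with biological replicate 2, so that 2 samples of each genotype were compared. The other 6 arrays hold Tc17 cells of both genotypes, activated with IL-6 and TGF-beta.

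The STAT3-/- cells came from mice with both copies of the gene floxed and a Cre recombinase driven by Cd4, which removes the gene in developing T cells, CD8 cells included. Naive CD8 T cells of the 2 genotypes, from spleen, were put together at a ratio of 1 to 1 and activated with anti-CD3 (1 µg/ml) and anti-CD28 (3 µg/ml). Cells of both genotypes therefore shared the culture dish, its IL-12 and whatever either genotype secreted. The culture ran for 4 days, 3 of them with IL-12 and the last with IL-2, before allelic markers on the cell surface were used to sort one genotype from the other. Neither the ages of the animals nor their number is given in the sources used here.

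STAT3 is a latent transcription factor. Receptors for IL-6, IL-10, IL-21, IL-27 and related cytokines activate JAK kinases, which phosphorylate STAT3. It then binds DNA as a dimer and induces genes such as Socs3, whose product shuts the receptor down again. The IL-12 receptor signals through JAK2 and TYK2, chiefly to STAT4, which with the transcription factor T-bet (Tbx21) installs the interferon-gamma and granzyme program. In helper T cells and in Tc17 cells STAT3 is needed for the IL-17 program, and the Tc1 culture asks which transcripts differ without STAT3 where IL-12 and not IL-6 was added.

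Values are log2 intensities after robust multi-array averaging (RMA), the authors' background correction, normalization and probe summary. Array medians lay between 3.95 and 4.10. A gene was tested where at least 1 of the 4 group means reached 5, which kept 9862 genes of 22180. The change is the mean of the STAT3-/- samples minus that of the WT samples, on the log2 scale, with its standard error (SE) from a limma fit over all 8 samples. A gene was called at a two-sided Benjamini-Hochberg adjusted p under 0.05 over all tested genes. The defining genes of CD8 T cells were bright on the 6 Tc1 arrays, with Cd8a at 11.21 to 11.38, Cd8b1 at 10.82 to 10.92 and Cd3e at 11.56 to 12.09. Cd4 lay between 4.57 and 5.47. The WT cells also carried the marks of the IL-12 condition: Ifng lay between 7.91 and 8.12 on the Tc1 WT arrays and averaged 4.72 ± 0.15 (SD, n = 2) in Tc17 WT cells, while in Tc1 and in Tc17 WT cells Il17a averaged 4.16 ± 0.04 (SD, n = 2) and 8.33 ± 0.60 (SD, n = 2).

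The technical arrays stood apart from the biological ones before any comparison of genotypes was made. On the first principal component of the 6 Tc1 arrays, which held 43.4% of the variance, the 2 technical arrays lay at 14.05 and 15.54 and the 4 biological arrays between -10.1 and -5.74. The departures of the technical array from the mean of the biological arrays correlated between WT and STAT3-/- (r = 0.525 across genes, which are not independent replicates). On the second component, with 21.29% of the variance, the technical arrays lay apart, at 10.44 (WT) and -11.04 (STAT3-/-). The SD of gene differences was 0.144 (WT) and 0.192 (STAT3-/-) between the biological arrays, and 0.247 and 0.292 between biological array 2 and the technical array. Each kind of array holds both genotypes, so differences within a kind are given beside the results. Nothing in the labels says whether replicates came from separate animals or cultures, so the p-values reflect the spread of these samples alone, part of which may be technical.

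Between the genotypes, 6 genes of the Tc1 transcriptome passed the test. Stat3, Ctse, Abhd17b and Nt5e fell and Mid1 and Bckdhb rose, 0.0608% of the 9862 genes tested. No list examined held more than 1 of them, but the lists were chosen with earlier results of these data known. In such bulk samples a gene expressed by fewer cells and a gene expressed at less RNA per cell cannot be told apart. Adding the kind of array to the model as a block raised the count to 20, with 7 higher and 13 lower, and those 20 included the same 6. With the technical arrays left out it was 17. The fit on the 4 Tc1 samples alone called 4. Over all settings run the count lay between 4 and 31.

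Stat3, the deleted gene, read 10.13, 10.11 and 9.77 on the WT arrays (biological 1, biological 2, technical) and 7.67, 7.16 and 6.99 on the STAT3-/- arrays. The genotypes did not overlap. Stat3 fell by 2.66 ± 0.18 (SE, 2 samples per genotype; limma adjusted p = 0.00029), a 6.34-fold drop (95% interval 4.81 to 8.35), which checks the labels of all 6 arrays. The Tc17 arrays gave a fall of 2.85 ± 0.18.

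Ctse encodes cathepsin E, an aspartic protease of the endosomes. Its value lay between 9.93 and 10.02 on the WT arrays and was 6.64, 6.56 and 6.59 on the STAT3-/- arrays. Within each genotype the 3 arrays lay close together, far from those of the other. The fall was 3.38 ± 0.10 (SE; limma adjusted p = 1.4e-06), or 10.4-fold (95% interval 8.85 to 12.2). None of the other 9 cathepsins tested was called, and their changes ran from -0.17 for Ctsz to 0.13 for Ctsl.

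Abhd17b encodes an enzyme that strips palmitate from membrane-bound proteins such as N-Ras. WT arrays gave 7.35, 7.40 and 7.17, and STAT3-/- arrays 3.96, 4.34 and 4.15, close to the array medians. The fall was 3.21 ± 0.16 (SE, limma adjusted p = 4.1e-05), or 9.28-fold (95% interval 7.27 to 11.85). The STAT3-/- values lay near background, so the size of the fall may be understated. Its relative Abhd17a differed by -0.21 (unadjusted p = 0.0303, not called), and the 11 other genes of palmitate turnover tested held no call.

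Nt5e encodes CD73, the ectoenzyme that turns extracellular AMP into adenosine, an inhibitor of T cells. It read 6.78, 6.75 and 6.23 in WT and 5.54, 5.41 and 4.82 in STAT3-/- cells. Every STAT3-/- array lay below every WT array, although the technical array of each genotype was the lowest of its 3. The fall was 1.30 ± 0.15 (SE; limma adjusted p = 0.0220), or 2.46-fold (95% interval 1.95 to 3.11), and within the kinds of array it was -1.23, -1.33 and -1.40. The other 10 tested genes of purine ectoenzymes and receptors, among them Entpd1 (CD39), were not called, and the largest change in size among them was 0.33 for P2rx7, an ATP-gated channel.

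Mid1 and Bckdhb were the 2 genes that rose. Mid1, a microtubule-bound ubiquitin ligase, read 6.22, 6.01 and 6.02 in WT and 9.76, 9.38 and 9.02 in STAT3-/- cells, a rise of 3.36 ± 0.21 (SE; limma adjusted p = 0.00026) or 10.3-fold (95% interval 7.38 to 14.3). A second, dim probe set for Mid1 read 2.99 in WT and 3.25 in STAT3-/- cells, and with the mean of both probe sets the rise was 1.86. Bckdhb, a subunit of the mitochondrial complex that breaks down branched-chain keto acids, read 5.79, 5.85 and 5.92 in WT and 7.13, 6.69 and 6.71 in STAT3-/- cells. It rose by 1.08 ± 0.13 (SE; limma adjusted p = 0.0403), or 2.11-fold (95% interval 1.71 to 2.61). The other 17 genes of branched-chain amino acid breakdown tested were not called, and their changes reached at most 0.18 in size.

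**Figure D1:**
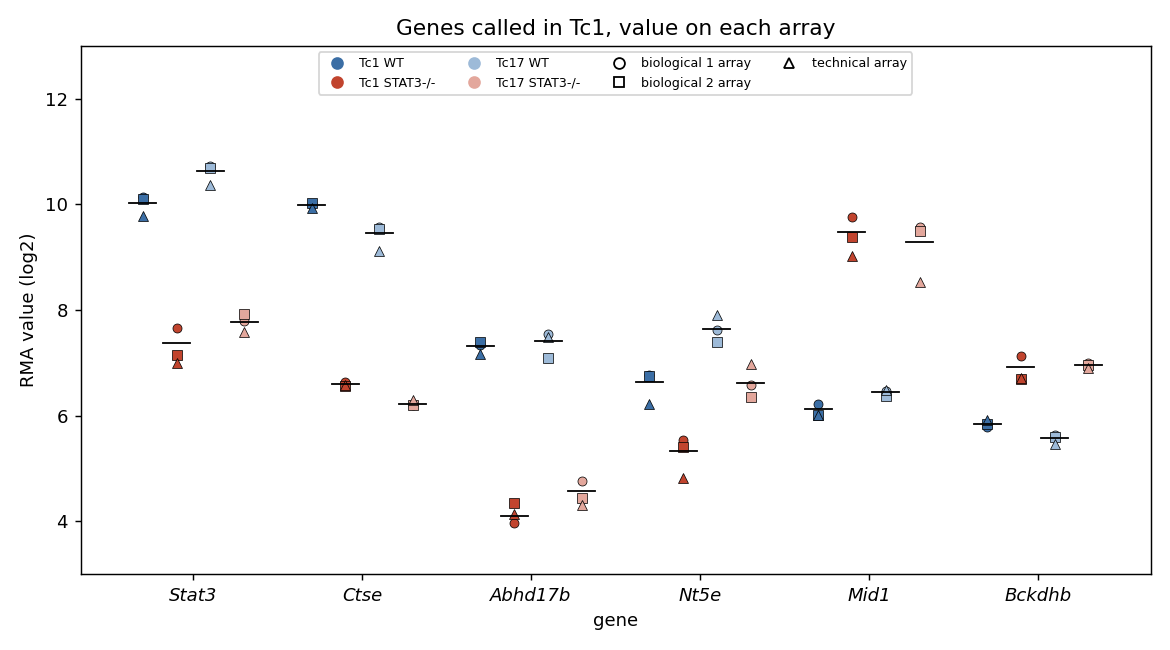
RMA values (log2, vertical axis) of the 6 genes called in Tc1 on each of the 12 arrays, by cell type and genotype; circles and squares are biological arrays 1 and 2, triangles are technical arrays, and each black bar is the mean of the 2 samples. For these 6 genes the 3 STAT3-/- arrays do not overlap with the 3 WT arrays in either cell type.

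In the plot of values by array the Tc17 cells show the same genes on the same sides. These 6 genes were also called in Tc17 with the same sign, against 25.1% of all tested genes called in Tc17 in either direction. The fit gives each gene 1 spread for both cell types, so a low p in Tc1 favours a call in Tc17. Log2 changes there were -3.23 for Ctse, -2.85 for Abhd17b, -1.01 for Nt5e, 2.85 for Mid1 and 1.38 for Bckdhb. The difference between the Tc17 and the Tc1 change, tested as an interaction, was called for 0 of the 6, with adjusted p-values from 0.325 to 0.672 (limma). Their intervals still allow differences: that of Mid1 ran from -1.19 to 0.16 and that of Abhd17b from -0.13 to 0.87.

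Ctse, Abhd17b, Mid1 and Stat3 were called under each of the 28 settings of the analysis in which single genes were followed, the reported one included. Nt5e was called in 21 and Bckdhb in 19. The call of Nt5e was lost without 6 of the 8 samples in turn and that of Bckdhb without 7, with the highest adjusted p-values (0.245 and 0.518) without Tc1 WT replicate 1.

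Some of the called genes have neighbours in the gene order of the mouse genome (RefSeq, assembly GRCm38.p6, used for order) that also stood out. Cemip2, a cell-surface hyaluronan-degrading enzyme, is the next tested gene to Abhd17b and lay on the opposite side: 4.46, 4.79 and 4.62 in WT against 5.26, 5.22 and 5.35 in STAT3-/- cells (0.69 ± 0.11, unadjusted p = 0.00011, limma adjusted p = 0.103). Erdr1, next to Mid1, was 0.55 ± 0.12 higher (adjusted p = 0.476). Tent5a, next to Bckdhb, was 0.57 ± 0.16 higher (adjusted p = 0.810). Bckdhb and Nt5e lie 7 tested genes apart, one higher and the other lower. Among the 20 tested genes on each side of Stat3, 0 of 40 were called and 3 had an unadjusted p under 0.05. Over all tested genes these shares were 0.0608% and 3.75%. Such a p was held by 7 of 40 around Nt5e and 7 of 40 around Bckdhb, windows that include each other's gene. It was held by 4 of 40 around Ctse, 1 of 40 around Abhd17b and 1 of 22 around Mid1. Stat5a, the neighbour of Stat3 and a member of its family, differed by -0.04. The genotypes came from separate mice with different allelic markers, so the loss of STAT3 and any other genetic difference between those mice cannot be told apart in the genes described here.

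**Figure D2:**
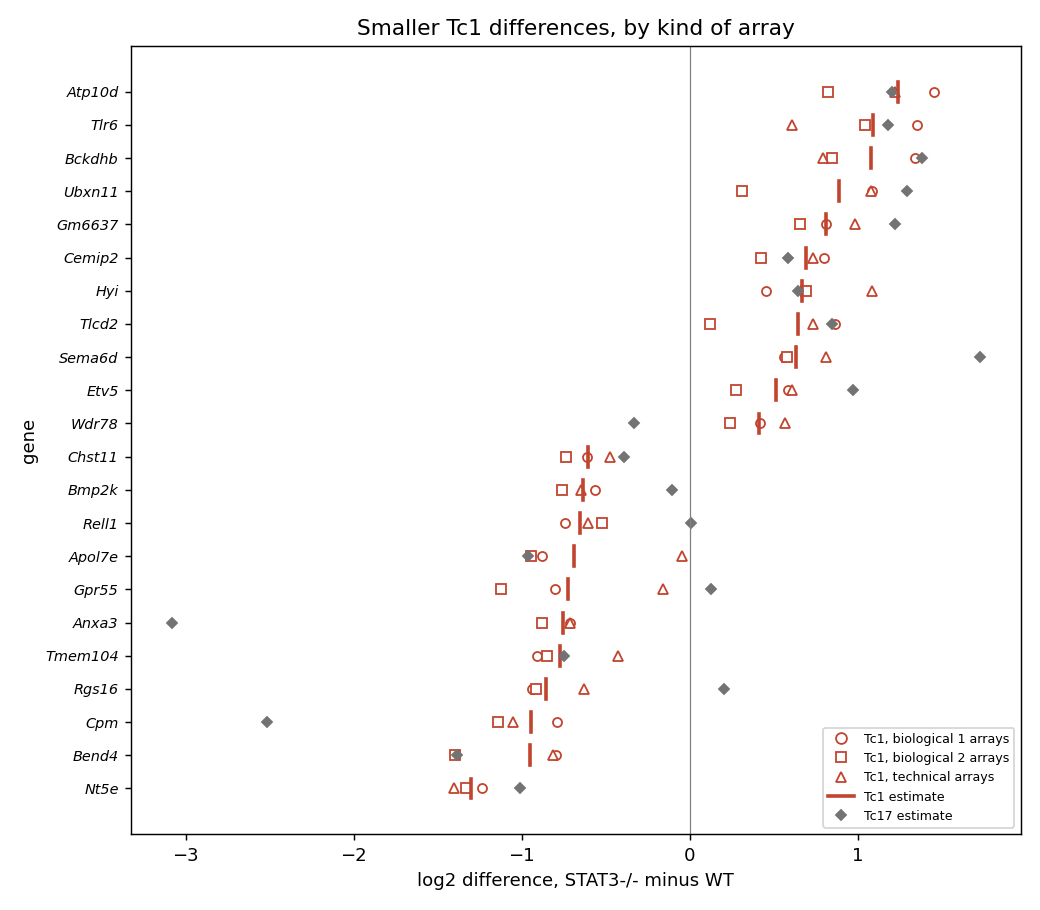
Log2 difference of STAT3-/- minus WT (horizontal axis) for Nt5e, Bckdhb and the 20 genes that came next, 10 on each side; open symbols are the 3 pairs of Tc1 arrays by kind, the red bar is the Tc1 estimate and the grey diamond the Tc17 estimate. For Rgs16, Gpr55, Rell1 and Bmp2k the Tc17 diamond lies between -0.10 and 0.20 while the 3 Tc1 differences are below 0.

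Beyond the called genes, 370 genes (3.75%) had an unadjusted p under 0.05, 199 of them higher and 171 lower. The 20 genes that came next, 10 on each side, were chosen by the lowest unadjusted p among those whose difference had 1 sign in the 3 array pairs, so their order and their lack of overlap follow from that choice, and the interaction values given for them use the same Tc1 difference. Non-overlap of the 3 STAT3-/- with the 3 WT arrays was seen in 4.59% of tested genes with STAT3-/- above and in 3.19% with STAT3-/- below.

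Rgs16, a GTPase activator that dampens chemokine receptor signals, headed the lower side. WT arrays read 8.28, 8.31 and 8.31 and STAT3-/- arrays 7.34, 7.40 and 7.68. The WT arrays lay close together, and each STAT3-/- array lay well below them. Its change of -0.86 ± 0.12 (SE) missed the threshold (limma adjusted p = 0.0720) and passed it under 15 of the 28 settings, among them the array-kind block (adjusted p = 0.0320) and the fit without technical arrays (adjusted p = 0.00236). In Tc17 cells Rgs16 differed by 0.20 ± 0.12. The difference between the cell types was 1.06 ± 0.17 (interaction adjusted p = 0.00806).

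Bmp2k, a kinase of endocytosis, read 9.36, 9.39 and 9.41 in WT and 8.79, 8.63 and 8.77 in STAT3-/- cells (-0.63 ± 0.10, adjusted p = 0.103). Gpr55, a lipid receptor, read 5.41, 5.23 and 4.84 against 4.61, 4.10 and 4.67, with a difference of -0.16 between the technical arrays. Its change of -0.72 ± 0.14 (adjusted p = 0.259) differed from that in Tc17 (0.12 ± 0.14, interaction adjusted p = 0.0370). Cpm, a carboxypeptidase, read 6.31, 6.43 and 6.40 against 5.52, 5.29 and 5.35. It differed by -0.94 ± 0.14 (adjusted p = 0.103) and fell further in Tc17, by 2.51 ± 0.14 (interaction adjusted p = 0.00314). Anxa3, an annexin, entered the test through Tc17 WT cells. In Tc1 it read 4.01, 3.89 and 3.78 in WT and 3.30, 3.02 and 3.07 in STAT3-/- cells, at or below the array medians, so a fall as large as that in Tc17 (-3.08 ± 0.17) could not have been seen there, and the Tc1 difference of -0.75 ± 0.17 is not compared with it.

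On the higher side, Atp10d read 5.18, 5.21 and 5.19 in WT and 6.63, 6.03 and 6.41 in STAT3-/- cells. It belongs to the phospholipid flippase family, but RefSeq classes it in the mouse as a transcribed pseudogene. Its change of 1.23 ± 0.19 (adjusted p = 0.103) was larger in size than that of Bckdhb and nearly the same in Tc17 (1.20 ± 0.19, adjusted p = 0.00264). Tlr6, a Toll-like receptor, was 1.09 ± 0.21 higher (adjusted p = 0.259), with 1.35, 1.04 and 0.61 within the kinds of array. Etv5, an ETS transcription factor, was 0.51 ± 0.09 higher (adjusted p = 0.220) and rose by 0.97 ± 0.09 in Tc17. Sema6d, a semaphorin, entered the test through Tc17 STAT3-/- cells, where it rose by 1.73 ± 0.13. In Tc1 it was dim, with means of 3.95 in WT and 4.58 in STAT3-/- cells (0.63 ± 0.13). Of these 20 genes, 16 had the same sign in Tc17 and 15 were called there with it, against 54.9% and 16.2% of all tested genes. Of the 92 genes with an unadjusted p under 0.01 in Tc1, 76 had the same sign and 59 were called with it. Ubxn11, like Anxa3 and Sema6d, was dim in Tc1 (means of 3.71 and 4.60) and entered the test through Tc17. The calls of these genes in Tc17 are therefore partly set by the filter. The fit also gives each gene 1 spread for both cell types. A low p in Tc1 thus favours a call in Tc17, and the share over all tested genes is no like baseline for such calls. Wdr78 was called there with the opposite sign (0.41 ± 0.09 in Tc1, -0.33 ± 0.09 in Tc17, interaction adjusted p = 0.00931), and 6 of the 20 had a called interaction.

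The size of the differences in the other Tc1 genes can be bounded. The 95% interval of the change lay within 2-fold in either direction for 9797 of the 9862 genes (99.3%) and within 1.5-fold for 9268 (94%). The median half-width of the interval was 0.25 on the log2 scale. The 65 intervals that reached past 2-fold include 4 that lay wholly past it, those of Ctse, Abhd17b, Mid1 and Stat3. RMA narrows differences near background, so the bounds say least about dim genes.

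The machinery that reads IL-12 was present at similar levels in both genotypes. Il12rb1 and Il12rb2 encode the receptor. Il12rb2 read 10.56, 10.67 and 10.51 in WT and 10.77, 10.71 and 10.90 in STAT3-/- cells (0.21, 95% interval -0.04 to 0.46), and Il12rb1 differed by -0.13 (-0.41 to 0.15). Of the kinases, Jak2 differed by 0.09 (-0.23 to 0.41) and Tyk2 by 0.07 (-0.17 to 0.32). Stat4, the main STAT of the IL-12 receptor, read 10.31, 10.33 and 10.10 against 10.45, 10.39 and 10.40 (0.16, -0.10 to 0.42). Of the IL-18 receptor chains, which IL-12 induces, Il18r1 differed by 0.24 (-0.07 to 0.55) and Il18rap by 0.24 (-0.24 to 0.72). Gadd45b, a stress-kinase activator of the same route, had the largest difference of the list, 0.37 (0.07 to 0.68, unadjusted p = 0.0218, not called). Of the 14 genes of the IL-12 and IL-18 pathway tested, 0 were called and the intervals of 14 lay within 2-fold. Over all tested genes 0.0608% were called and 99.3% had such intervals, so these counts do not set the list apart. The same shares apply to the lists that follow.

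No other member of the JAK and STAT family was called either. The 8 tested besides Stat3 differed by at most 0.16 in size, Stat5b by 0.02 (-0.19 to 0.23), Stat6 by 0.01 (-0.23 to 0.25), Stat2 by -0.07 (-0.31 to 0.16) and Jak1 by -0.07 (-0.26 to 0.12). Of the receptors that feed STAT3, 8 were bright enough to test and 0 were called: Il6st (gp130, the shared chain of the IL-6 family) differed by 0.20 (-0.16 to 0.56), Il21r by -0.12 (-0.35 to 0.10), Il27ra by -0.11 (-0.33 to 0.12) and Il10ra by 0.10 (-0.28 to 0.48). Il6ra was near the detection floor of the array in Tc1 WT cells, at 5.16, 5.25 and 4.83, and read 5.16, 4.91 and 5.03 in STAT3-/- cells.

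The type 1 program stood at similar levels with and without STAT3, with 1 chemokine as the widest departure. Of 19 genes tested, 0 were called and 18 intervals lay within 2-fold, beside 0.0608% and 99.3% of all tested genes. The median change was 0.11 against 0.01 over all tested genes. Ifng, the cytokine that defines the program, read 7.91, 8.06 and 8.12 in WT and 7.87, 7.51 and 8.12 in STAT3-/- cells. The genotypes overlapped, and the difference was -0.16 (95% interval -0.40 to 0.08). Tbx21 read 7.19, 6.99 and 7.25 against 7.15, 6.94 and 7.35 (-0.01, -0.24 to 0.23). Eomes, the second T-box factor, differed by 0.01 (-0.36 to 0.38), Runx3, a factor of CD8 identity, by -0.07 (-0.38 to 0.24), and Tnf by -0.12 (-0.34 to 0.11).

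Ccl5, a chemokine of effector CD8 T cells, read 7.82, 7.92 and 7.41 in WT and 8.65, 8.55 and 8.79 in STAT3-/- cells. The arrays did not overlap, and the difference of 0.91 ± 0.20 (95% interval 0.46 to 1.37, unadjusted p = 0.00136, limma adjusted p = 0.463) was called under 5 of the 28 settings. Within the kinds of array it was 0.83, 0.63 and 1.37. In Tc17 cells Ccl5 rose by 2.59 ± 0.20, more than in Tc1 (interaction adjusted p = 0.0104). Of the related chemokines, Ccl3 differed by 0.21 (-0.27 to 0.69) and Ccl4 by 0.08 (-0.23 to 0.39) in Tc1.

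The killing machinery gave 0 calls among 15 genes tested, beside 0.0608% of all tested genes, with a median change of -0.03. Gzmb, a granzyme that triggers death of the target cell, read 12.14, 12.14 and 12.15 in WT and 12.07, 12.10 and 12.08 in STAT3-/- cells (-0.06, 95% interval -0.27 to 0.15). Prf1, which encodes the pore-forming perforin, read 9.50, 9.49 and 9.98 against 9.08, 8.84 and 9.88. Its difference of -0.40 ± 0.12 (unadjusted p = 0.0114, adjusted p = 0.998) was -0.42, -0.65 and -0.11 within the kinds of array, and Prf1 fell in Tc17 by 0.61 ± 0.12 (adjusted p = 0.00857). Gzmk read 5.59, 5.65 and 5.57 against 6.56, 6.38 and 5.88, with a difference of 0.74 ± 0.17 (unadjusted p = 0.0018, adjusted p = 0.493) that was called under 1 of the 28 settings, the fit without technical arrays. Nkg7, a granule membrane protein, differed by 0.03 (-0.23 to 0.28) and Gzma by 0.01 (-0.34 to 0.36).

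**Figure D3:**
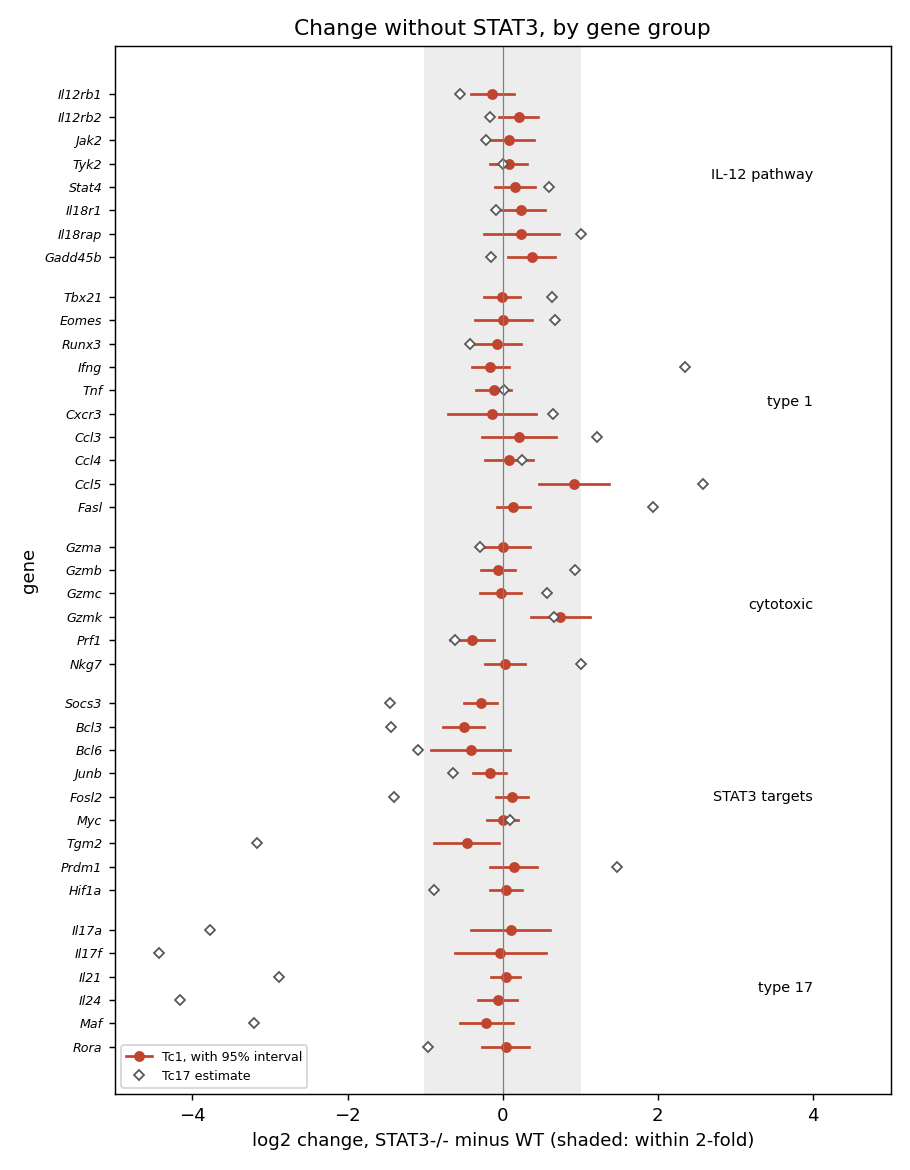
Log2 change of STAT3-/- over WT (horizontal axis) for genes grouped by role; red points with bars are Tc1 estimates with 95% intervals, open diamonds are Tc17 estimates, and the shaded band marks changes within 2-fold. Tc1 intervals of Ccl5 and Gzmk leave the band; Tc17 estimates of Il17f (-4.43), Il24 (-4.17), Tgm2 (-3.17), Ccl5 (2.59) and Ifng (2.35) lie far outside it.

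The direct targets ascribed to STAT3 were mostly expressed in Tc1 cells, and 0 of 21 tested were called. The intervals of 21 lay within 2-fold and the median change was -0.03, against 3 higher and 15 lower calls among the same genes in Tc17. Over all tested genes 99.3% had such intervals in Tc1, and 25.1% were called in Tc17. In 4 of the 21 the Tc1 WT mean lay under 5, where a fall could hardly be seen. Bcl3, a regulator of NF-kappaB, had the largest difference. It read 8.53, 8.30 and 8.08 in WT and 7.92, 7.80 and 7.77 in STAT3-/- cells, below WT on each kind of array by 0.60, 0.50 and 0.31. Its change of -0.50 ± 0.12 (unadjusted p = 0.0022, limma adjusted p = 0.571) was smaller than the fall of 1.44 ± 0.12 in Tc17 (interaction adjusted p = 0.0140). Socs3 read 6.27, 6.39 and 6.15 against 5.94, 5.92 and 6.14, a difference of -0.28 ± 0.10 (unadjusted p = 0.0154, adjusted p = 0.998) that was -0.01 between the technical arrays. In Tc17 it fell by 1.46 ± 0.10 (interaction adjusted p = 0.00164). Tgm2, a transglutaminase, differed by -0.46 ± 0.18 (unadjusted p = 0.0342) and Bcl6 by -0.41 (95% interval -0.92 to 0.09).

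Other targets showed less. Myc was 0.00 (-0.20 to 0.20), Junb -0.17 (-0.38 to 0.04), Fosl2 0.12 (-0.09 to 0.32), Prdm1 (Blimp-1) 0.14 (-0.16 to 0.44) and Pim1 -0.03 (-0.25 to 0.20). The cytokine-feedback genes as a group, 14 tested, held 0 calls, with Socs1 at -0.05 (-0.25 to 0.16), Socs2 at -0.02 (-0.23 to 0.19) and Cish at -0.32 (-0.91 to 0.27).

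STAT dimers bind the palindrome TTCNNNGAA, and STAT3 favours the form TTCCNGGAA, which the first motif contains. Promoter windows from RefSeq (assembly GRCm38.p6; 250 bases before to 50 after a start) were searched for it, the motif reading the same on both strands. It is present in 8.3% of 32851 windows and the stricter form in 1.15%. Of the 6 called genes, 5 had a window and 0 held TTCNNNGAA. Of the 10 next lower genes 9 had a window, and that of Gpr55 held TTCCNGGAA. Of the 10 next higher genes 5 had a window, and 1 window of Tlr6 held 2 TTCNNNGAA matches, TTCAGAGAA and TTCGGAGAA. The window of Socs3 held 1 match and that of Bcl3 none. The windows of Nt5e, Gpr55 and Socs3 are printed on the strand of the gene, to show a called gene, the next-ranked gene with the stricter motif and the textbook target, with matches in capitals. Nt5e lies at chr9:88327359-88327658 (plus strand), Gpr55 at chr1:85961006-85961305 (minus strand) and Socs3 at chr11:117969317-117969616 (minus strand).
Nt5e: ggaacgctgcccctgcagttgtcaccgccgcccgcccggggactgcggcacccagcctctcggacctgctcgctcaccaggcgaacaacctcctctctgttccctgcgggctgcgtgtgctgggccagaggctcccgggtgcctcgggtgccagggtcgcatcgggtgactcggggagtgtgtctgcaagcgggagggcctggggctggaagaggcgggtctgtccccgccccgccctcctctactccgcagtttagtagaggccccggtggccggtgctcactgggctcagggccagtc
Gpr55: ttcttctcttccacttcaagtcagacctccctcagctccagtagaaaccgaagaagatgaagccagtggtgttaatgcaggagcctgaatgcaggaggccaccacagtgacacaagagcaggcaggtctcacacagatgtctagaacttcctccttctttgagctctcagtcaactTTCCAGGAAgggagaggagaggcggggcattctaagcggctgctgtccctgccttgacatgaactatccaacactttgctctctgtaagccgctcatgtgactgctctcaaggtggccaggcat
Socs3: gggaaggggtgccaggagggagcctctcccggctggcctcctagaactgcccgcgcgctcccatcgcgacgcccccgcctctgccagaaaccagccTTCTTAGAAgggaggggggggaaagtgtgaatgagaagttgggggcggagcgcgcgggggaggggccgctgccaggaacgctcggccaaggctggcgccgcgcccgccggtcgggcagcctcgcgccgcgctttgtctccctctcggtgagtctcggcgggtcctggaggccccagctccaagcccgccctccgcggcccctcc
A match describes these letters only, and the genes without one may have sites elsewhere.

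The genes of the type 17 program gave 0 calls among 14 tested in Tc1, and 14 intervals lay within 2-fold, while 14 were called lower in Tc17. Over all tested genes 0.0608% were called and 99.3% had such intervals in Tc1, and 674 of 9862 were called lower in Tc17. In 7 of the 14 the Tc1 WT mean lay under 5, where a fall could hardly be seen. Il17a read 4.13, 4.11 and 4.27 in WT and 4.33, 4.23 and 4.15 in STAT3-/- cells. Il17f, Il21, Il24 and Maf, the last a transcription factor of IL-10 and IL-17 producing cells, were just as dim, between 3.54 and 4.77 on the 6 arrays. Others were bright. Hif1a, the hypoxia factor, averaged 9.23 ± 0.04 (SD, n = 2) in WT cells and differed by 0.04 (-0.17 to 0.25) in Tc1, against a fall of 0.89 ± 0.09 in Tc17 (interaction adjusted p = 0.00499). Irf4 averaged 9.74 ± 0.02 (SD, n = 2), with 0.01 (-0.18 to 0.20) in Tc1 and -0.48 ± 0.08 in Tc17 (interaction adjusted p = 0.0426), and Batf differed by 0.07 (-0.14 to 0.28) in Tc1 and -0.58 ± 0.09 in Tc17 (interaction adjusted p = 0.0225).

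Of 18 inhibitory receptors and effector regulators tested 0 were called. Their median change was 0.10, with 13 above 0 and 5 below. Pdcd1, which encodes PD-1, read 7.37, 7.45 and 7.71 in WT and 7.91, 7.62 and 8.41 in STAT3-/- cells. The STAT3-/- array was higher within each kind (0.54, 0.17 and 0.70), but the ranges overlapped, and the change of 0.49 ± 0.12 (unadjusted p = 0.0025) had an adjusted p of 0.631. It was smaller than in Tc17 (1.24 ± 0.12, interaction adjusted p = 0.0293). Havcr2 (TIM-3) read 7.79, 7.59 and 8.34 against 8.20, 7.80 and 8.59 (0.32 ± 0.10, unadjusted p = 0.0102). It rose in Tc17 by 1.60 ± 0.10 (interaction adjusted p = 0.00123). Of 5 NK receptors tested, a separate list, 0 were called. The largest difference there was that of Klrc1, an inhibitory receptor, at -0.45 ± 0.15 (unadjusted p = 0.0162) with a Tc1 WT mean of 4.98.

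Other programs gave no calls in Tc1. The 26 cell-cycle genes had intervals within 1.5-fold, with a median of -0.00, although 17 of them were called higher in Tc17. Over all tested genes 94% had such intervals in Tc1, and 1799 of 9862 were called higher in Tc17. The 17 genes of glycolysis and hypoxia and the 16 of cholesterol synthesis also had intervals within 1.5-fold. The 25 genes of the respiratory chain had a median of -0.03. Of 14 interferon-stimulated genes 0 were called, with Gbp4 at 0.70 (0.06 to 1.33) and overlapping arrays, and Mndal at 0.39 (0.05 to 0.73). Of 19 cytokine receptors 0 were called. Ifngr2, the second chain of the interferon-gamma receptor, differed by 0.37 ± 0.10 in Tc1 and fell by 1.21 ± 0.10 in Tc17 (interaction adjusted p = 0.00047). Among homing receptors, Itga4 (alpha-4 integrin) differed by 0.35 ± 0.10 (unadjusted p = 0.00519) and Cxcr4 by 0.32 ± 0.14. Bcl2 differed by 0.24 (0.03 to 0.46) and Klf2 by 0.26 (0.03 to 0.49). Over the lists, 333 different genes were tested: 5 were called, 26 (7.81%) had an unadjusted p under 0.05, and 323 (97%) had intervals within 2-fold. Over all tested genes the shares were 0.0608% called, 3.75% and 99.3%. The lists were chosen with earlier results of these data known, so the list shares are partly set by that choice.

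**Figure D4:**
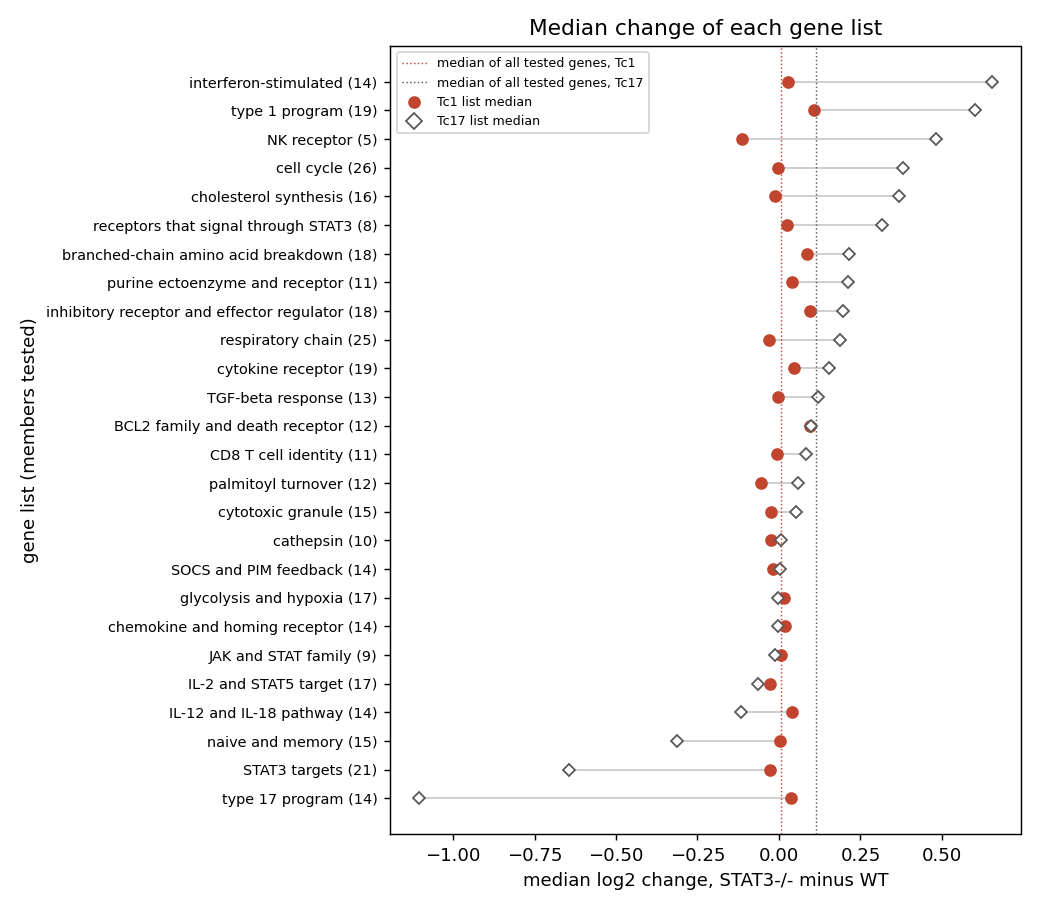
Median log2 change of STAT3-/- over WT (horizontal axis) for each gene list with at least 5 tested members, their number in brackets; red points are Tc1 and open diamonds Tc17, and the dotted lines are the medians of all tested genes (0.01 in Tc1, 0.11 in Tc17). Tc1 medians lie between -0.11 and 0.11, while Tc17 medians reach -1.10 for the type 17 program and 0.65 for interferon-stimulated genes.

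No marker of another cell type was called in Tc1. Tested were 3 markers of CD4 T cells, 2 of the B lineage and 1 each of myeloid, innate-like T and erythroid cells. Ighm was bright on the 6 arrays, from 10.38 to 10.72, and differed by 0.07 (-0.15 to 0.29). Cd79b, the other B-lineage gene tested, lay between 6.44 and 6.87 and differed by 0.04 (-0.22 to 0.29). The B cell genes Ms4a1, Cd79a and Pax5 were too dim to test.

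The genes called at 2-fold or more in Tc17 cells were then followed in Tc1. Of 161 genes called and at least 2-fold lower in Tc17, 113 (70.2%) were below 0 in Tc1, against 48.2% of all tested genes, with a median of -0.12. Of 144 genes called and at least 2-fold higher in Tc17, 123 (85.4%) were above 0 in Tc1, against 51.8%, with a median of 0.14. The Tc17 medians of these sets were -1.41 and 1.24. The 6 genes called in Tc1 are among them, 4 lower and 2 higher, and without these the medians were -0.11 and 0.14. By kind of array the medians of the lower set were -0.11, -0.22 and -0.04, beside 0.01, -0.07 and 0.07 over all tested genes. Those of the higher set were 0.16, 0.04 and 0.27. With the median of each array subtracted the set medians were -0.11 and 0.14. Single samples moved them: that of the lower set was -0.063 without Tc1 STAT3-/- replicate 2 and -0.074 without Tc1 WT replicate 1, and that of the higher set 0.090 without Tc1 STAT3-/- replicate 1.

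Levels in Tc1 limit part of this comparison. In 45 of the 161 lower genes the Tc1 WT mean was under 5, as in 499 of all 9862 genes. In the 116 at or above 5 the median was -0.15, 88 were below 0 and 4 were called. Tc1 intervals lay within 2-fold for 135 of the 161 and 133 of the 144 genes, smaller shares than the 9797 of all 9862. They excluded the Tc17 value for 154 and 141, beside 3942 of all 9862. Both sets were chosen for a large Tc17 change, so the counts of excluded values are no result of their own. Across all tested genes the changes in the 2 cell types, which share no array, correlated at r = 0.317, or 0.281 without the 6 called genes. Genes are not independent replicates, and both comparisons hold the same kinds of array.

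The difference between the 2 cell types passed the test for 676 genes (6.85%), 442 where the Tc17 change was the more positive and 234 where it was the more negative. They included 123 of the 161 lower and 115 of the 144 higher genes, sets chosen by the same Tc17 change that the interaction uses, so these shares are no result of their own. In 86 of the 123 and 101 of the 115 the Tc1 WT mean reached 5. In the most negative of these, Il17f, Il24, Il17a, Cysltr1, Ecm1, Igfbp4, Maf, Il21, Slc4a11 and Tgm2, the interaction ran from -4.40 to -2.70, and Tc1 changes lay between -0.46 and 0.10. Tgm2 was the one among them with a Tc1 WT mean above 6. In the most positive, Clnk, Xcl1, Itih5, Tmem273, Ifng, Mndal, Tph1, Pygm, Car2 and Gm4759, it ran from 1.93 to 2.75. Ifng was expressed in Tc1 cells as well. It rose by 2.35 ± 0.11 in Tc17 and differed by -0.16 ± 0.11 in Tc1 (interaction 2.50 ± 0.15, adjusted p = 5.9e-05). Itih5, a matrix-binding protein, was also bright in Tc1, at 8.28 to 8.56, and differed there by 0.15 (-0.05 to 0.36) while rising by 2.73 ± 0.09 in Tc17. Gzmb rose by 0.93 ± 0.09 in Tc17 (interaction adjusted p = 0.00378) and Fasl, the death ligand of killer cells, by 1.94 ± 0.09 (interaction adjusted p = 0.00020), with 0.14 (-0.08 to 0.35) in Tc1. The count of 676 was sensitive to single samples: it was 1555 without Tc17 WT replicate 1 and 244 to 363 without either sample of Tc1 STAT3-/-, Tc1 WT or Tc17 STAT3-/-.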

How the data were processed

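The authors deposited 1 value per probe set and array on a log2 scale, made with RMA and Partek per the submitters' processing notes. Neither the versions nor the step done by each tool is given in the sources used here. That the scale is log2 follows from the values. The number of arrays limits the precision.

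Of 41345 probe sets, 23521 with exactly 1 gene symbol in the platform annotation were used for genes, 1814 had several symbols and 16010 none. The brightest probe set of a gene was kept. Each technical array was averaged with biological replicate 2. The fit of group means over 8 samples used R 4.3.3 and limma 3.58.1 (lmFit, contrasts.fit, eBayes; 4 residual and 4.87 prior degrees of freedom), tested on simulated data beforehand. The contrasts were STAT3-/- over WT in Tc1, the same in Tc17, and Tc17 minus Tc1 (the interaction). Single-gene p-values are two-sided and from limma, adjusted ones over all 9862 genes. A 95% interval is the moderated one of the same fit. Python 3.11.15 with matplotlib 3.10.9 drew the figures, and the data.table package (version 1.17.8) read the files.

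The comparison and the 31 gene lists were chosen with earlier results of these data known. Named were the genes called in Tc1; the 10 next on each side with 1 sign in the 3 array pairs; the 10 most negative and 10 most positive called interactions; members of the JAK and STAT, STAT3 receptor, STAT3 target, feedback, IL-12, type 1, granule and type 17 lists; in other lists the called members and the 3 largest changes; gene-order neighbours of called genes; and cell type markers. Genes of other lists named beside these, and the genes of the closing observations, were chosen after their values were seen. Alternatives covered the filter, technical arrays, samples in the fit, pairing, scaling, probe sets, empirical Bayes and each sample left out; 4 more ways to treat technical arrays were chosen after seeing the data.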

Additional observations from a re-analysis of the deposited data

Results flagged for a closer look

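A difference between the Tc17 and the Tc1 change marked 56 of the 126 single genes followed, beside 676 of all 9862 tested (6.85%). Of the 56, 20 were named because their difference was among the most extreme, so the count is partly set by that choice. Values are the interaction, the change in Tc17 minus that in Tc1 on the log2 scale, with limma's adjusted p under 0.05 for each.

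Among STAT3 targets and type 17 genes it was more negative in Tc17 for Il17f (-4.40), Il24 (-4.10), Il17a (-3.87), Maf (-3.00), Il21 (-2.92), Tgm2 (-2.70), Il6ra (-1.89), Fosl2 (-1.52), Tmem176b (-1.27), Socs3 (-1.17), Rora (-1.0015), Bcl3 (-0.93), Hif1a (-0.93), Batf (-0.65) and Irf4 (-0.50). Prdm1 went the other way (1.33), as did Socs2 (0.99), a feedback gene.

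Other genes with a more negative value were Cysltr1 (-3.50), Ecm1 (-3.21), Igfbp4 (-3.15), Slc4a11 (-2.87), Anxa3 (-2.33), Ifngr2 (-1.58), Cpm (-1.57), Klrc1 (-1.46), Klrd1 (-1.17), Cd68 (-1.09), Erdr1 (-0.81) and Wdr78 (-0.74). Ifngr2, Erdr1 and Wdr78 had Tc1 values of 0.37, 0.55 and 0.41 and Tc17 values below 0.

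Genes of the type 1 and killing programs had more positive values: Xcl1 (2.58), Ifng (2.50), Ly6c2 (1.89), Fasl (1.80), Ccl5 (1.67), Serpinb6b (1.20), Gzmb (0.99), Nkg7 (0.98) and Tbx21 (0.64). So had the inhibitory receptors Havcr2 (1.28) and Pdcd1 (0.76), and Bcl2l11 (1.02), Klf2 (0.72) and Il10rb (0.57).

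The remaining positive values were those of Clnk (2.75), Itih5 (2.58), Tmem273 (2.57), Mndal (2.31), Tph1 (2.18), Pygm (2.18), Car2 (1.99), Gm4759 (1.93), Ighm (1.70), Sema6d (1.10), Rgs16 (1.06), Gpr55 (0.85) and Cd79b (0.74). Rgs16 and Gpr55 had values of -0.86 and -0.72 in Tc1 and of 0.20 and 0.12 in Tc17. Anxa3 and Sema6d were among the genes that were dim in Tc1 and entered the test through Tc17. So were Il17f, Il24, Il17a, Maf, Il21, Cysltr1, Ecm1, Slc4a11 and Klrc1, all with negative values. In these and Anxa3 a fall in Tc1 could hardly be seen. Among the positive values, Clnk, Xcl1, Tmem273, Tph1 and Car2 were dim in Tc1 in the same way.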

How the results depend on the processing

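None of the 6 genes called in Tc1 changed sign under the alternatives run, while 40 of the 126 genes followed, none of these 6, had the other sign in at least 1. Of the genes named, calls were lost 16 times, each time of Nt5e or Bckdhb, and gained 103 times, as for Rgs16 in 15 settings. The 6 calls in Tc1 became 17 with technical arrays left out, 16 with them averaged into replicate 1, 13 with them as samples of their own, 20 with array kind as a block and 25 with it as a block within cell type, 11 without the Tc1 and 13 without the Tc17 technical arrays. They were 4 to 7 without single samples. Each of the settings with more than 7 calls kept the 6. The cause of these moves was not tested. Without a filter on dim genes 22091 of 22180 genes were bounded within 2-fold, and 9724 to 9801 without single samples.

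The replicate numbers are not stated to pair the samples. Deviations of same-numbered samples correlated at 0.455 between the Tc1 genotypes with technical arrays averaged (0.172 without) and at 0.098 to 0.160 between the other groups. The replicate block gave 15 calls over all groups and 31 within cell type, and 16 with arrays of 1 kind and number paired.

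The interaction count of 676 became 384 with no filter, 1246 with technical arrays left out, 1043 without those of Tc1, 1402 with array kind as a block within cell type, 1018 with the replicate block over all groups, 1150 with it within cell type, and 244 to 1555 without single samples.

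The Tc1 median of the genes lower in Tc17 was -0.14 with a filter at 6, -0.15 with a filter on Tc1 groups alone, -0.17 with technical arrays left out or averaged into replicate 1 or without those of Tc1, and -0.13 and -0.14 with array kind as a block, over all arrays and within cell type; it was -0.14 with arrays paired. Without single samples it ran from -0.17 to -0.063 (Tc1 STAT3-/- replicate 2). That of the genes higher in Tc17 was 0.10 with technical arrays left out, 0.11 with them averaged into replicate 1, 0.094 without those of Tc1 and 0.090 to 0.18 without single samples. With 2 samples per genotype, changes under the median half-width of 0.25 could not be told from 0 for most genes, and dim genes are bounded least well.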

Other observations

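Small nucleolar RNAs, which guide chemical modification of ribosomal RNA, lay mostly on one side in Tc1. Of 61 tested, 58 (95.1%) were below 0, against 48.2% of 9375 protein-coding genes, with a median of -0.29. The medians within the kinds of array were -0.22, -0.26 and -0.50, so the technical pair gave the largest. None was called by limma, 11 had an unadjusted p under 0.05 on the lower side and 1 on the higher, and Snord104, Snord17 and Snora62 were each called in 5 of the 28 settings. In Tc17 the median was -0.64 and 28 were called lower, beside 610 of the 9375 protein-coding genes. Whether RNA quality or labelling of short transcripts took part was not tested.

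Genes with an unadjusted p under 0.01 in Tc1, 92 in all (0.933% of genes placed in order), stood close together at some places of the gene order. Between Rell1 and Antxr2, 14 of 88 tested genes (15.9%) had such a p, among them Bmp2k, Anxa3, Bend4, Atp10d and Tlr6. Of these 14, STAT3-/- cells were higher in 8 and lower in 6. In Tc17 12 of the 14 kept their sign, beside 76 of the 92 genes with such a p and 54.9% of all tested genes. Between Slc17a5 and Nt5e it was 5 of 18 (27.8%), namely Slc17a5 (0.63), Bckdhb (1.08), Tent5a (0.57), Cyb5r4 (-0.43) and Nt5e (-1.30). Between Ipp and Zfp691 it was 4 of 32 (12.5%), Hyi included. These stretches were picked after the values were seen and were given no test.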
